A study of Mus musculus with 2 samples.

Results

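Long non-coding RNAs (lncRNAs) that start at the promoter of a protein-coding gene and run away from it on the opposite strand were measured in the forebrain of mouse embryos. GENCODE release M21 gives the gene type bidirectional promoter lncRNA to 190 of the 55536 gene identifiers in the deposited gene tables, and all 190 were taken. Each was paired with the protein-coding gene whose start lay nearest on the opposite strand, which gave 189 neighbours, because Gm27045 and 1700030M09Rik share 1700018B08Rik. A set of 10 well-known lncRNAs was to be left out by name, and 0 of them carried this gene type. PolyA-plus RNA came from B6NCrl embryos of mixed sex at embryonic day 12.5, with pool 1 made from 120 embryos and pool 2 from 68. The labels call the pools biological replicates and name 1 group with no treatment or genotype contrast. Each library was made from 10 ng of RNA by oligo-dT priming, PCR amplification of full-length cDNA and Nextera tagmentation, and it held ERCC spike-in RNAs. The total over genes was 33373843 counts for pool 1 and 34406648 for pool 2.

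Many promoters of vertebrate genes, above all those rich in CpG, load RNA polymerase II in both directions. The upstream transcript usually ends early and is degraded by the nuclear exosome, a complex that trims and destroys RNA from its free end, while a stable lncRNA remains where the upstream transcript is protected by splicing and a poly(A) tail. U1 snRNP, the particle that recognises 5′ splice sites, holds back early cleavage in the coding direction. An oligo-dT library reads mainly RNAs with a poly(A) tail, so it gives mostly the stable products of such promoters and not their full transcription.

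Levels are in TPM, a transcript abundance per length scaled to a fixed total per library, and ± gives the SD of the pools (n = 2). A gene was called detected at a TPM of 1 or more in each pool. The smallest p that an exact two-sided sign-flip test allows for 2 pools is 0.5. No test was therefore run, and counts and medians are set beside the same over other genes. All 5 forebrain markers looked at were detected, and 0 of 5 markers of midbrain, hindbrain and spinal cord reached 1 TPM. Red cell, mesenchyme, endothelium and microglia markers were also detected, so the pools hold RNA of other cells. In bulk tissue, fewer cells of a type and less RNA per cell cannot be told apart.

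The start of the lncRNA lay a median of 166 bases from the start of its neighbour, with quartiles of 89 and 354.75 bases. The distance was within 1 kb in 173 of 190 pairs and over 5 kb in 6, the longest being 247978 bases between Gm48814 and Sorl1 (this pair was singled out after its values were seen). When any protein-coding transcript start was used, 184 pairs lay within 1 kb and 189 kept the same neighbour. In 115 pairs the starts stood apart, with a median gap of 109 bases. In 75 the starts ran past each other, with the lncRNA start downstream of its neighbour's start. Whether it lay before the neighbour's end was not checked for all of these. The members fell on 16 chromosomes, with 30 on chromosome 12, 23 each on chromosomes 10 and 8, and 21 on chromosome 17. Chromosomes 4 and 11 held 1 each. The numbers of lincRNA genes were 318 on chromosome 12, 390 on 10, 342 on 8, 231 on 17, 217 on 4 and 184 on 11. The gene type is an annotation label, so the spread of the members describes the annotation. The 190 genes have 289 annotated transcripts, and 50 genes have a single exon. Exon bases were shared with another gene by 78 members, 65 of them with the coding neighbour. The sources used here do not say whether counting used strand, so the levels of these 78 are uncertain. Overlap with introns of other genes was not measured, so the other 112 may also hold reads of other genes.

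The DNA between the starts is shown for 8 pairs, because it is the stretch from which both genes run outward and its composition can be compared between pairs. The first 5 are among the 10 highest lncRNAs, 0610009L18Rik has the neighbour with the highest level among the detected pairs, and Gm26559 and Gm16196 were not detected beside neighbours of high level. Each line runs 5′ to 3′ on the strand of the lncRNA, from the start of the coding neighbour to 20 bases into the lncRNA, in GRCm38 from RefSeq. Capitals mark matches on either strand to the GC box (GGGCGG), the CCAAT box (CCAAT), the TATA box (TATAAA) and the ETS site (CCGGAAG), and runs of capitals can hold overlapping matches. Regions annotated there are the promoter and the first bases of the first exon of the lncRNA.
4632427E13Rik / Rab30, chr7:92741448-92741603, minus strand: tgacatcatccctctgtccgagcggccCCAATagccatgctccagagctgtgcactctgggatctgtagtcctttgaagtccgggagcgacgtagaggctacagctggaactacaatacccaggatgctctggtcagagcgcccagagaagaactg
2810013P06Rik / Ankrd11, chr8:123042277-123042486, plus strand: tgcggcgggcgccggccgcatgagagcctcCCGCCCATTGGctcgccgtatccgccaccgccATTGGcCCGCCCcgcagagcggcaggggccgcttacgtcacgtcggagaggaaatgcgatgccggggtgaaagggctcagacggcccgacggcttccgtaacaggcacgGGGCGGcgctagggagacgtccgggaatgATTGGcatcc
Gm49785 / Thap7, chr16:17531136-17531202, plus strand: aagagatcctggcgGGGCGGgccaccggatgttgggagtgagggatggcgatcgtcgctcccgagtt
2610306M01Rik / Aak1, chr6:86849420-86849517, minus strand: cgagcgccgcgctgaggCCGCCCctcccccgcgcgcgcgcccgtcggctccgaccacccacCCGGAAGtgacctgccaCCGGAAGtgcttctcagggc
AV356131 / Pik3c2a, chr7:116443449-116443595, plus strand: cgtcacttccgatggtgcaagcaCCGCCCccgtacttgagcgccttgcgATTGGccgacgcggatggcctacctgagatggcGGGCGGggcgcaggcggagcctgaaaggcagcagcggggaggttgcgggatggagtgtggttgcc
0610009L18Rik / Actg1, chr11:120348542-120348698, plus strand: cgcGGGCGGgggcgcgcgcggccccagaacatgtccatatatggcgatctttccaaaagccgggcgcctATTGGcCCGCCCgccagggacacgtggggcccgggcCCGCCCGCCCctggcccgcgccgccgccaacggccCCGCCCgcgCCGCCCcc
Gm26559 / Map1b, chr13:99516540-99516649, plus strand: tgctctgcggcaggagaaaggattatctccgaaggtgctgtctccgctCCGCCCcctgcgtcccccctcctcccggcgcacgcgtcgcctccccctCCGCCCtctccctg
Gm16196 / Srsf3, chr17:29032548-29032628, minus strand: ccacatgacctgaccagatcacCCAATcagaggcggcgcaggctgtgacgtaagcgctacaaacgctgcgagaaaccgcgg

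The stretch of 4632427E13Rik and Rab30 has 56.4% G and C and a single CCAAT match, and the stretch of 0610009L18Rik and Actg1 has 79.6% G and C with 6 GC boxes and a CCAAT match. The stretch at 2810013P06Rik has 3 CCAAT matches and 3 GC boxes, and that at 2610306M01Rik has 2 ETS sites and a GC box. The stretch of the undetected Gm26559 has 2 GC boxes, and that of Gm16196 a CCAAT match. A stretch with a gap of up to 240 bases could be read for 78 of 96 such pairs. Of these 78 stretches, 48 held a GC box, 24 a CCAAT box, 13 an ETS site and 0 a TATA box. They differ in length, so no share of other regions is set beside them.

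Windows of one length were compared instead, from 250 bases before to 50 after each RefSeq start (GRCm38.p6), which were matched for 95 members and 147 neighbours. The median ratio of observed to expected CpG, a measure of how far the window has kept its CpG pairs, was 0.855 in the lncRNA windows and 0.844 in those of their neighbours. The same median was 0.384 over all 32851 windows, 0.588 over protein-coding genes and 0.236 over long intergenic RNAs (lincRNAs). The ratio was at least 0.6 in 77.9% of the lncRNA windows and in 35.8% of all windows, and median G and C content was 66.3% against 52.7%. The gene type is defined by a place at coding promoters and windows of a pair can overlap, so the lncRNA and neighbour windows are not independent. The GC box occurred in 66.3% of lncRNA windows and 35.7% of all windows, the ETS site in 20.0% and 8.86%, and the CCAAT box in 35.8% and 37.4%. The TATA box occurred in 4 of 95 lncRNA windows (4.21%) and 13.6% of all windows, and in 0 of the 62 whose RefSeq start lay within 50 bases of the GENCODE start. Among detected lncRNAs 11 of 32 windows held an ETS site, and among those not detected 8 of 63 did. In the same 2 sets the median CpG ratio was 0.928 and 0.790. The GC box share was 71.9% and 63.5%, the CCAAT box share 40.6% and 33.3%, and the TATA box share 0% and 6.35%. The windows with a TATA box were those of Gm16196, Gm10000, Gm35110 and Gm26708. Their RefSeq starts lay 55, 199, 5523 and 80862 bases from the GENCODE start, so some are not windows of the annotated start. The split by detection set no limit on this distance. This split was not made for other genes, so it is not shown to be particular to the members.

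**Figure D1:**
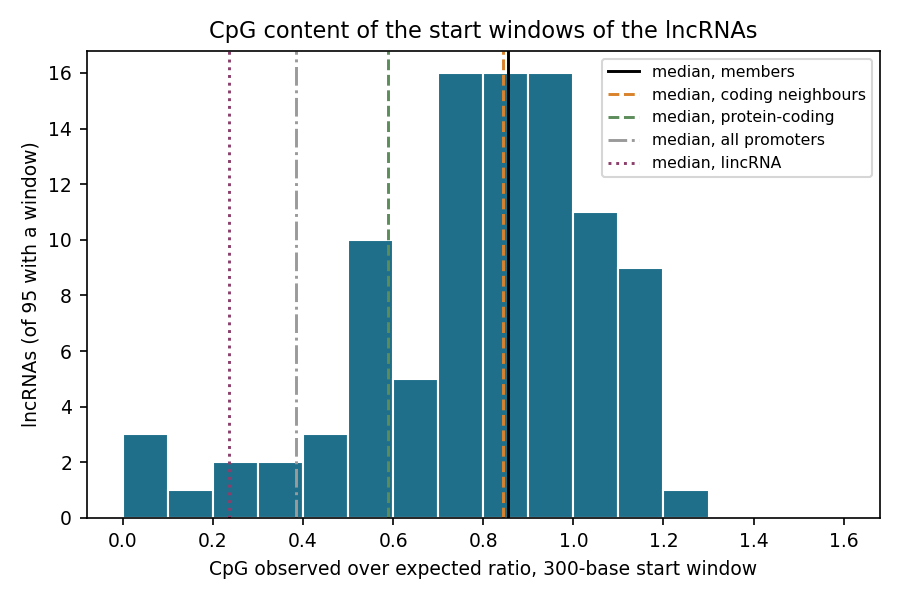
Histogram of the CpG observed over expected ratio (x axis, no unit) in the 300-base start windows of 95 lncRNAs (y axis, number of lncRNAs), with vertical lines at the medians of the lncRNAs and 4 other sets. Most lncRNA windows lie above the medians of all promoters (0.384) and of lincRNAs (0.236), and the lncRNA and neighbour medians nearly coincide at 0.855 and 0.844.

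Of the 190 lncRNAs, 58 (30.5%) were detected, beside 27.8% of all genes, 58.9% of all protein-coding genes, 13.5% of antisense genes and 6.17% of lincRNAs. Other lncRNA genes with a start apart from a coding start within 1 kb, which GENCODE puts under other types, were detected in 191 of 573 cases (33.3%). The coding neighbours were detected in 169 of 189 cases (89.4%), with a median of 23.2 TPM against 4.07 TPM over all protein-coding genes. So the share of detected members was close to that of all genes and of other divergent lncRNAs, and the neighbours were the set with the high share. Of the single-exon lncRNAs 21 of 50 (42.0%) were detected, and of the spliced ones 37 of 140 (26.4%). This split was not made for other gene classes, so it is not shown to be particular to the members. Members with shared exon bases were detected in 24 of 78 cases and those without in 34 of 112. A further 10 members reached 1 TPM in 1 pool and not in the other, and 20 had no count in either. For these 20, absent reads leave room for a median of 0.261 TPM (pool 1) or 0.25 TPM (pool 2), and for 1.02 or 0.983 TPM in the member with the highest such limit, taking 3 counts as the limit.

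**Figure D2:**
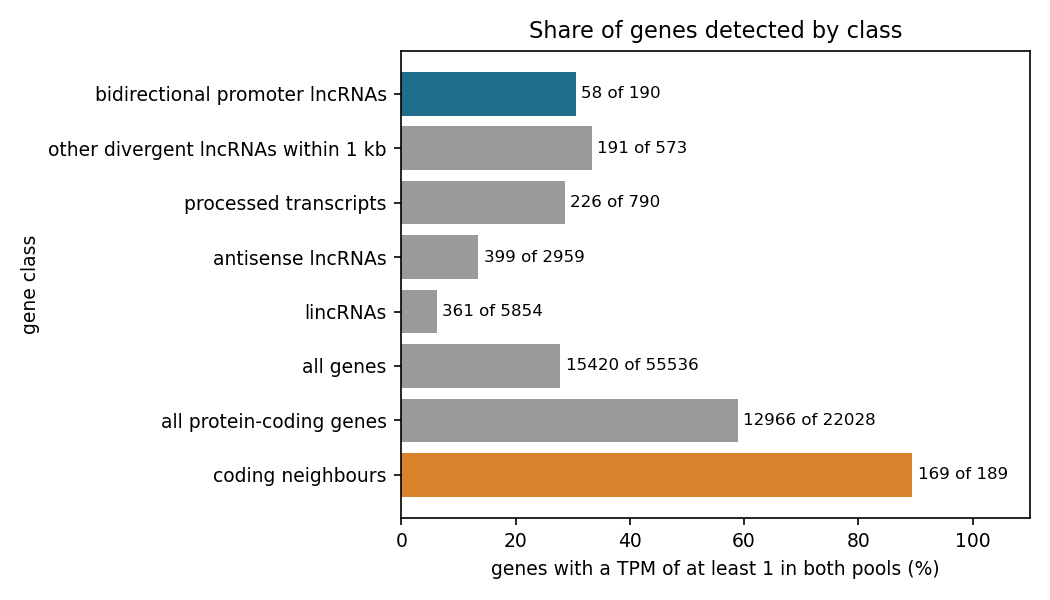
Share of genes detected in both pools, at 1 TPM or more (x axis, percent), by gene class (y axis), with the number detected of the number in the class beside each bar. The bar of the bidirectional promoter lncRNAs (58 of 190) is near those of all genes and of other divergent lncRNAs, and the bar of their coding neighbours (169 of 189) is the longest.

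Most detected members were low. Their median was 3.56 TPM (mean of the pools), 9 of 190 members reached a mean of 10 TPM and 20 reached 5 TPM. The lowest count behind a detected member was 11.7 in pool 1 and 15 in pool 2, and the medians were 89.3 and 89. All members together took 0.0490% of the gene counts in pool 1 (exact 95% binomial interval 0.0483% to 0.0498%) and 0.0504% in pool 2 (0.0497% to 0.0512%). Their summed level was 565 TPM in pool 1 and 569 TPM in pool 2, of which 32.1% and 31.9% came from Ndufb1-ps. The pools gave like values: the SD was a median of 8.87% of the mean over the 58 detected members, and over 25% in 4.

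**Figure D3:**
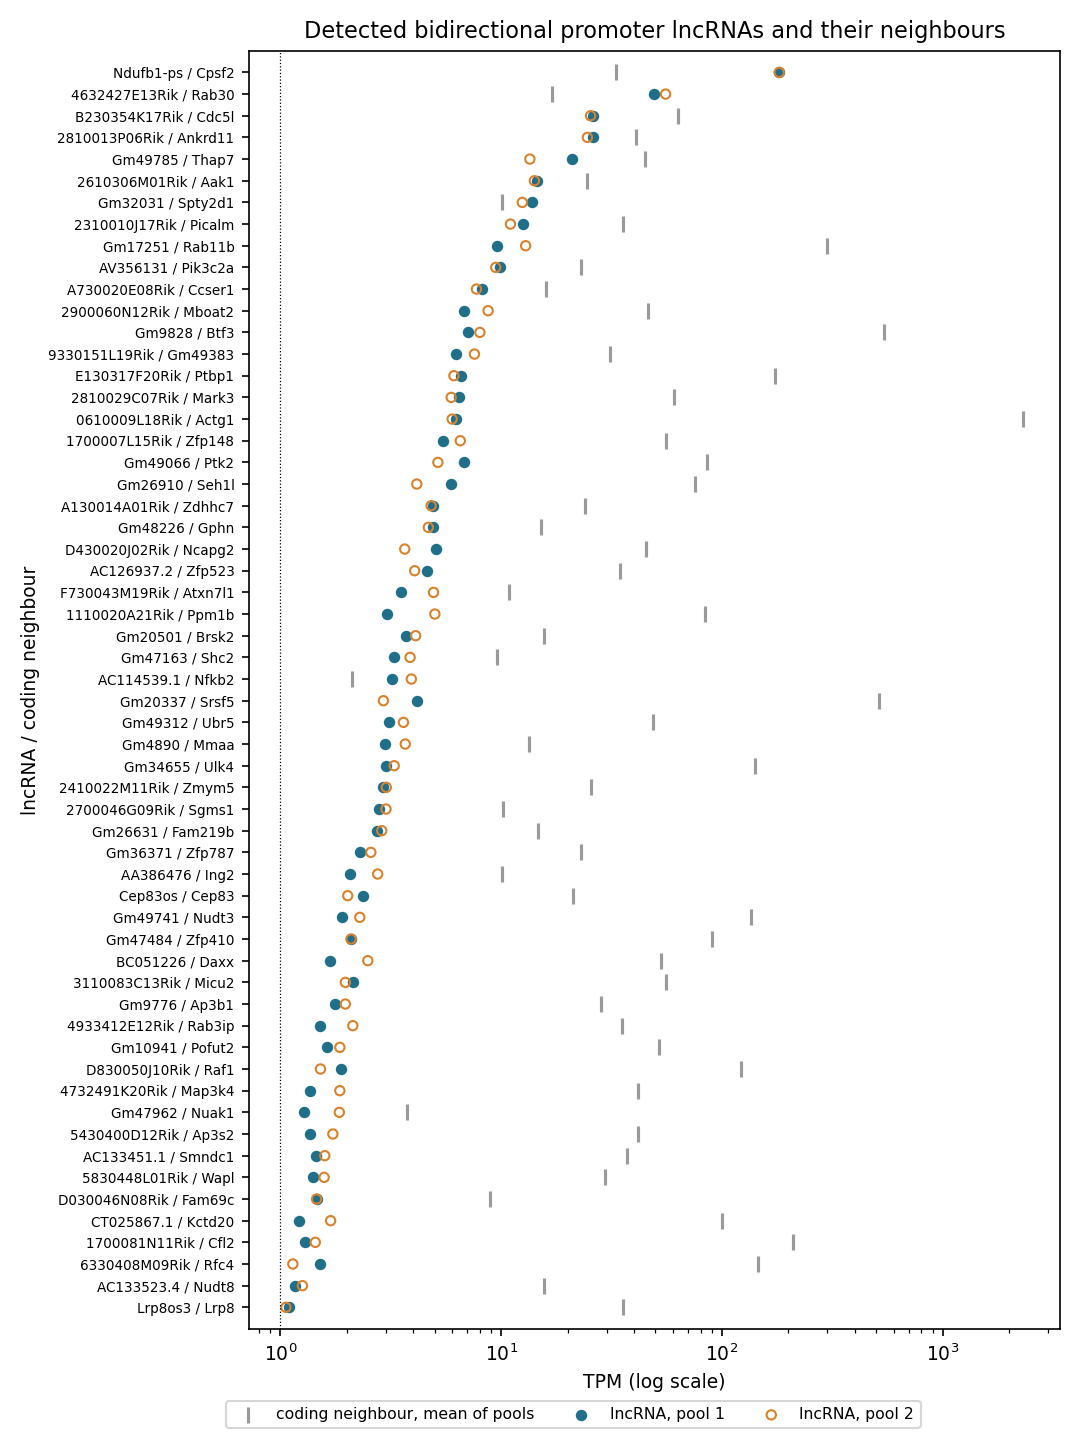
TPM on a log scale (x axis) of the 58 detected lncRNAs in pool 1 (filled points) and pool 2 (open points), each named with its coding neighbour (y axis), whose mean over the pools is a grey bar; the dotted line marks 1 TPM. Apart from 4 pairs the grey bar lies to the right of the points, from Nuak1 at a few TPM to Actg1 at 2305.

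Ndufb1-ps stood highest, with 181.25 TPM (pool 1) and 181.53 TPM (pool 2). It lies on the minus strand of chromosome 12 (chr12:101968090-101977068) and starts 1080 bases inside Cpsf2, which encodes a subunit of the complex that cleaves pre-mRNA at poly(A) sites. Cpsf2 was at 33.54 and 32.42 TPM, so the lncRNA exceeded it 5.50-fold in the mean (log2 difference of TPM + 1 of 2.42 ± 0.04). The pools barely differ for either gene. The symbol Ndufb1-ps has a pseudogene suffix after Ndufb1, the name of a subunit of mitochondrial complex I. Whether its RNA codes for that protein was not tested, so calling it a lncRNA rests on the M21 gene type alone. It shares 147 exon bases with Cpsf2, and its counts were not whole, so some reads were split among genes. Transcript ENSMUST00000221191.1 carried 64.1% of its TPM and ENSMUST00000221422.1 carried 32.3%.

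4632427E13Rik was second, with 49.16 TPM (pool 1) and 55.54 TPM (pool 2). Its counts of 3823 and 4321 were whole, and none of its exon bases is shared with another gene. Its neighbour Rab30, a small GTPase of the Golgi, starts 135 bases away and was at 16.93 and 17.20 TPM. The lncRNA was above the coding gene in both pools, with a log2 difference of 1.56 ± 0.11. Most of its level (69.5%) was in the single-exon transcript ENSMUST00000098305.3.

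The next lncRNAs all had a mean above 14 TPM. B230354K17Rik, beside Cdc5l, a spliceosome component, was at 26.05 and 25.40 TPM, against 64.44 and 62.60 TPM for Cdc5l, with which it shares exon bases. The single-exon 2810013P06Rik was at 26.11 and 24.58 TPM, and its neighbour Ankrd11, a chromatin regulator needed in brain development, at 29.94 and 51.44 TPM. Ankrd11 thus differed 1.72-fold between the pools in TPM and 1.35-fold in unscaled counts. The lncRNA differed 1.07-fold the other way in counts scaled with TMM (counting interval 0.988 to 1.17), which is not the same measure. Gm49785, a single exon of 337 bases, was at 20.98 TPM (pool 1) and 13.49 TPM (pool 2). Its neighbour Thap7, a zinc finger protein, starts 46 bases away and was level at 44.86 and 45.11 TPM. 2610306M01Rik was at 14.58 and 14.14 TPM beside Aak1, a kinase of clathrin-mediated endocytosis, at 25.63 and 23.25 TPM. With the older annotation the direction of this pair turned, since Aak1 was then at 13.9 TPM (log2 difference 0.12, against -0.73).

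The other members of the 15 highest lay between 6.35 and 13.1 TPM in the mean. Gm32031 was at 13.81 and 12.47 TPM, above Spty2d1, a histone chaperone, at 9.56 and 10.55 TPM, but 329 of its exon bases lie in that gene. 2310010J17Rik was at 12.59 and 11.02 TPM beside the clathrin assembly gene Picalm at 37.15 and 34.41 TPM. AV356131 was at 9.91 and 9.45 TPM beside the lipid kinase gene Pik3c2a at 20.77 and 25.39 TPM. In these 3 pairs lncRNA and coding gene were at most 3.03-fold apart in the mean. Without transcripts under 300 bases, however, 2310010J17Rik was at 1.6 and 1.43 TPM, 23.6-fold under Picalm (log2 difference -3.87, against -1.52 with all transcripts). A730020E08Rik (8.15 and 7.73 TPM) stood beside Ccser1 (13.46 and 18.41 TPM), and 2900060N12Rik (6.8 and 8.73 TPM) beside the acyltransferase gene Mboat2 (46.85 and 45.72 TPM). 9330151L19Rik (6.27 and 7.57 TPM) stood beside Gm49383 (30.11 and 32.14 TPM) and shares 1107 exon bases with Dnaaf2.

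Of the 15, 3 lay beside genes of far higher level. Gm17251, at 9.58 and 12.91 TPM, was 26.6-fold under Rab11b, a GTPase of recycling endosomes, at 294 and 304 TPM. Gm9828, at 7.11 and 8.01 TPM, was 71.9-fold under Btf3, a subunit of the complex that binds nascent polypeptides, at 540 and 548 TPM. E130317F20Rik, at 6.59 and 6.11 TPM, was 27.4-fold under Ptbp1, the splicing repressor of neural progenitors, at 174.02 and 174.49 TPM. Each of these lncRNAs shares exon bases with its neighbour. 0610009L18Rik shares none and was at 6.25 and 6 TPM beside Actg1, cytoplasmic gamma-actin, at 2280 and 2330 TPM, a 376-fold difference (this pair was chosen after its values were seen, as the detected pair with the highest neighbour). The remaining 43 detected members lay between 1.08 and 6.195 TPM in the mean.

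Across the pairs the coding gene was the higher one by a wide margin. The median difference of log2(TPM + 1), lncRNA minus neighbour, was -3.41 in pool 1 and -3.36 in pool 2 (-3.38 ± 0.04). The quartiles in pool 1 were -4.81 and -1.48. In the median the lncRNA stood at 2.69% of its neighbour's TPM over the pairs where the neighbour had a level, and at 10.3% where both were detected. Of the 58 detected members, 54 were under their neighbour in both pools, 28 of them more than 10-fold in the mean.

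All 58 detected lncRNAs had a detected neighbour, which is 34.3% of the 169 members with such a neighbour, against 0 of the 21 without. Among other divergent lncRNAs the same counts were 184 of 460 and 7 of 113. By the level of the neighbour, 4 of 61 lncRNAs were detected where it was under 10 TPM, 33 of 81 where it was from 10 to 50 TPM, and 21 of 48 where it was at least 50 TPM. The step was thus between the first class and the other two, which had like shares of 40.7% and 43.8%. Over the 190 pairs Spearman's rho between lncRNA and neighbour levels was 0.40 in each pool. Over the 58 pairs with both genes detected it was 0.022. These are descriptions across genes of the same libraries, and pairs that share exon bases can share reads. The share detected was 35 of 115 (30.4%) with starts apart and 23 of 75 (30.7%) with starts past each other. The median difference of log2(TPM + 1) was -3.69 in the first and -2.93 in the second. As a share of the neighbour's TPM the order was the other way, with medians of 3.10% and 2.27%. The neighbours had medians of 28.25 and 14.7 TPM, and the added 1 narrows the log2 difference more at low levels. So neither set is shown to stand closer to its neighbours.

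**Figure D4:**
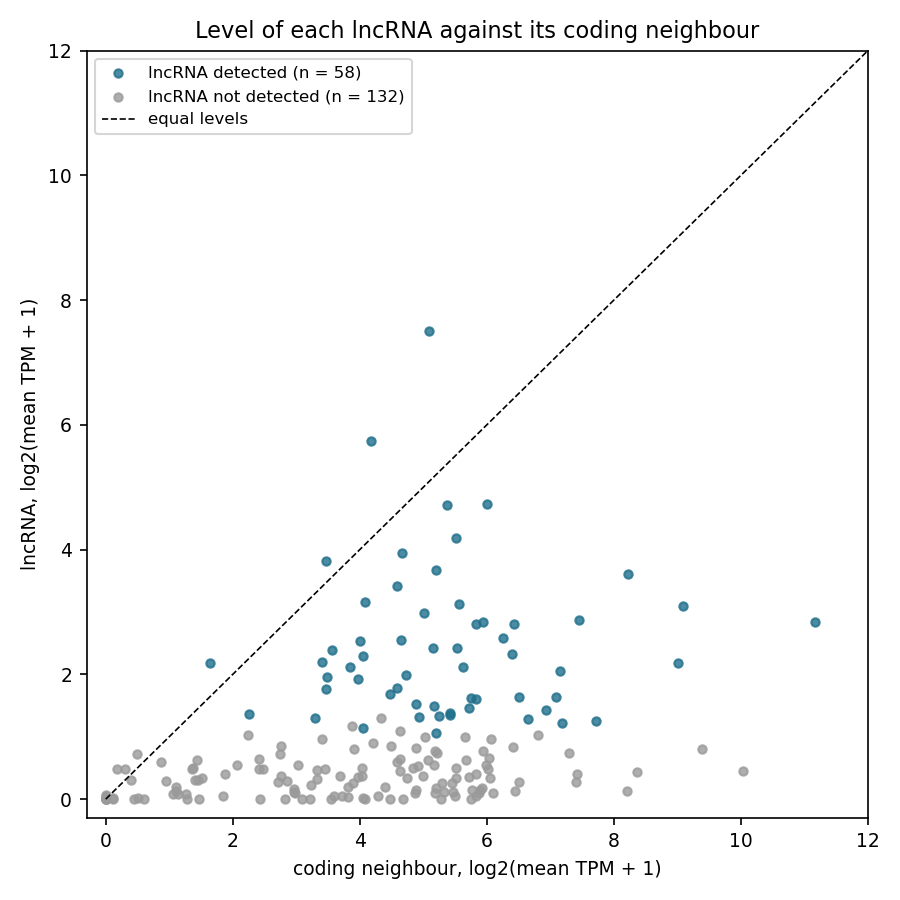
Level of each of the 190 lncRNAs against that of its coding neighbour, both as log2(mean TPM + 1), with detected lncRNAs (n = 58) in blue, the others (n = 132) in grey and a dashed line at equal levels. Detected points begin mainly where the neighbour is above about 3 on this scale and spread without a trend from there, and few points lie above the line.

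In 7 pairs the lncRNA was above its neighbour in both pools (3.68% of 190), beside 37 of 573 other divergent lncRNAs (6.46%). Over the members arranged like those 573, with starts apart within 1 kb, it was 2 of 112 (1.79%). Besides Ndufb1-ps, 4632427E13Rik and Gm32031, 1 more of the 7 was detected. AC114539.1 was at 3.21 and 3.92 TPM and Nfkb2, a subunit of the transcription factor NF-kappa-B, at 1.95 and 2.28 TPM, with 531 exon bases shared. The last 3, Gm47863, Gm27045 and Gm49481 (named after their values were seen), stayed under 1 TPM with neighbours also under 1 TPM. Only 2 of the 7 share no exon base with another gene, 4632427E13Rik and Gm49481, and of these 4632427E13Rik alone was detected. Gm47962, another member with a small difference, was at 1.28 and 1.85 TPM beside the kinase gene Nuak1 at 3.40 and 4.12 TPM.

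A neighbour of high level did not bring a detected lncRNA in 27 of the 48 pairs with a neighbour at 50 TPM or more. Gm26559 starts 89 bases from Map1b, a microtubule-associated protein of growing axons at 1071 and 1023 TPM, and was at 0.22 and 0.51 TPM from 11 and 27 counts. Gm16196 starts 60 bases from Srsf3, an SR splicing factor at 671 and 667 TPM, and was at 0.89 and 0.59 TPM from 27 and 21 counts. 1700026N04Rik was at 0.52 and 0.17 TPM beside Dek, a chromatin protein at 333 and 328 TPM, from 6 and 2 counts, of which the second is under the 3 counts taken as the limit. Each of these lncRNAs had reads in both pools and shares no exon base with another gene. CT025652.2 was at 0.13 and 0.06 TPM beside the ribosomal protein gene Rpl10a at 288 and 300.44 TPM. 1700022H01Rik was at 0.33 and 0.31 TPM beside Sar1a, a GTPase of vesicle budding, and AC144797.2 at 0.26 and 0.17 TPM beside the bromodomain gene Brwd1. These 3 had 2 to 4 counts per pool, which is at or near that limit. Gm20337 lies beside another SR factor gene, Srsf5 (514 TPM in both pools), and was detected at 4.16 and 2.93 TPM. Neighbours of high level thus included both detected and undetected partners of the same gene family.

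By role, the 189 neighbours were set against short lists out of 22028 protein-coding genes. Few matches would be found in any set of this size, so no excess or lack is read from the counts. There were 0 neighbours on a list of 160 forebrain regulators. On a list of 200 cell cycle and DNA repair genes there were 3, Rfc4, Espl1 and Gins2, and 1 of their 3 lncRNAs was detected. That list is not complete: Ncapg2 (condensin), Wapl (cohesin release), Rnf8 and Aplf (DNA repair) are also neighbours and are not on it (named after their values were seen). The lncRNAs beside Ncapg2, at 5.07 and 3.66 TPM, and beside Wapl, at 1.41 and 1.58 TPM, were detected, and those beside Rnf8 and Aplf were not. Chromatin genes were also among the neighbours. BC051226, beside the histone chaperone gene Daxx (52.95 and 53.40 TPM), was at 1.68 and 2.49 TPM. Gm49041, beside the histone demethylase gene Kdm7a (14.13 and 13.14 TPM), reached 1 TPM in pool 1 alone (1.69 and 0.81 TPM).

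The pools were compared over the 65 members whose mean was 1 TPM or more, by counts scaled with TMM. The difference was over 2-fold in 2 of 65 (3.08%), beside 2.45% of all genes above the same level and 2.72% of those in the same range of counts. Both were higher in pool 2, as were 1.5% of all genes by that margin, and 0 were higher in pool 1, beside 0.947% of all genes. 9530062K07Rik, beside Washc2, a subunit of the WASH complex of endosomes, had 8 counts in pool 1 and 22 in pool 2, a 2.61-fold ratio with a 95% counting interval of 1.12 to 6.78. 2310014F06Rik, beside Tead1, a transcription factor of the Hippo pathway, had 29 and 64 counts, a 2.09-fold ratio with an interval of 1.33 to 3.37. By the same scaled counts pool 2 stood at 0.991 times pool 1 for Washc2 (49.90 and 48.62 TPM) and 1.09 times for Tead1. The 1.09 of Tead1 lies below the interval of its lncRNA, which is also one of scaled counts. In TPM, another measure, Tead1 was at 16.15 and 22.13, 1.37-fold higher in pool 2.

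Of the 65 members, 30 were higher in pool 1 and 35 in pool 2, with a median log2 ratio (pool 1 over pool 2) of -0.09. The median size of the log2 ratio was 0.19, beside 0.23 for all genes in the same range of counts. The counting interval left out a ratio of 1 in 12 of the 65 (18.5%), beside 35.2% of all genes above the same level. In the same range of counts it did so in 9 of 51 members (17.6%) and in 24.9% of genes. Scaling by spike-in totals moved the median of all genes from 0.01 to -0.16 and gave 14 members higher in pool 1 and 51 in pool 2. The highest ratios towards pool 1 were those of Gm49041 (16 and 8 counts), Gm49785 (106 and 71), Gm20337 (90 and 66) and Gm26910 beside the nuclear pore gene Seh1l (75 and 55). Gm49785 was 1.57-fold higher in pool 1 (1.15 to 2.16), and the interval of Gm49041 held 1 (0.851 to 5.69). Towards pool 2, Gm26777 beside the glycosyltransferase gene Galnt16 was at 0.90 and 1.36 TPM. The ratios of lncRNA and neighbour were not related across the 65 pairs (Pearson's r 0.07, Spearman's rho -0.04, given as a description across genes of the same libraries), and 28 pairs had ratios of the same sign. The pools also differed in the summed level of the red cell markers (5910 and 7994 TPM) and the mesenchyme markers (516 and 610 TPM), and the part of these cells in any lncRNA's ratio was not tested.

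**Figure D5:**
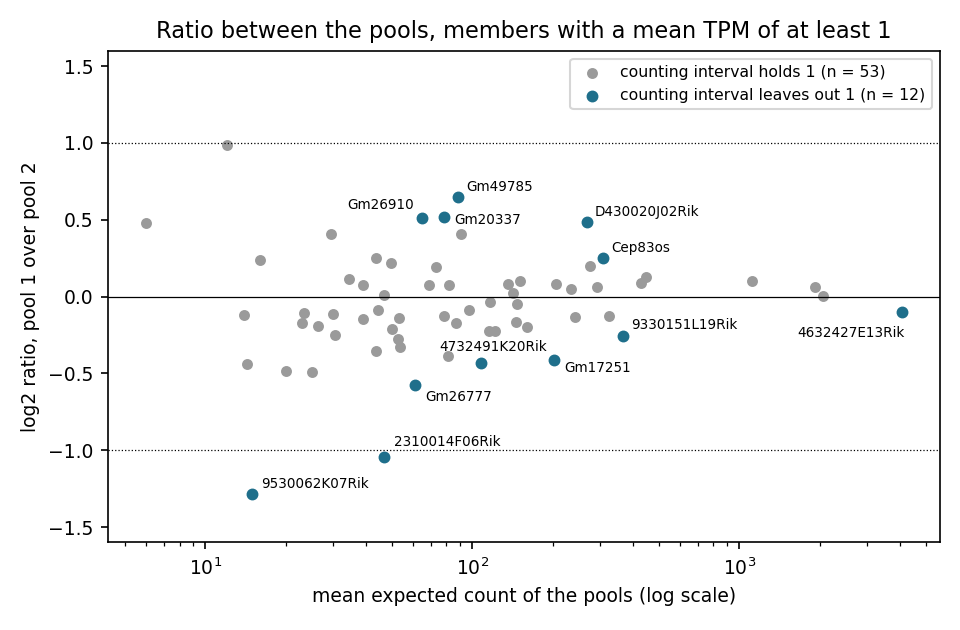
Log2 ratio of scaled counts, pool 1 over pool 2 (y axis), against the mean expected count (x axis, log scale) for the 65 lncRNAs with a mean of 1 TPM or more; named blue points are the 12 whose 95% counting interval leaves out 1, and dotted lines mark 2-fold. The 2 points beyond 2-fold, 9530062K07Rik and 2310014F06Rik, have fewer than 70 counts in either pool, and members with many counts lie near 0.

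Levels also depended on the annotation, since 90 members are listed in the older tables (GENCODE M4). 2310010J17Rik was at 12.59 and 11.02 TPM with M21 and 3.38 and 3.79 TPM with M4, a 3.29-fold difference. With M21, 87.2% of its level was in ENSMUST00000209166.1, a transcript of 271 bases from 2 exons. 2310014F06Rik was 3.06-fold higher with M21, B230354K17Rik 1.54-fold and 1110020A21Rik, beside the phosphatase gene Ppm1b, 1.51-fold. In the other direction the ratio of M21 to M4 was 0.571 for Cep83os, beside the centriole gene Cep83, 0.674 for D030046N08Rik beside Fam69c, 0.919 for Gm26777 and 0.931 for BC051226. Gm16196 was at 0.14 TPM in pool 1 with M4 and listed at 0 in pool 2, and Map1b, the neighbour of Gm26559, was at 474 TPM in the mean with M4. 4632427E13Rik kept its level (50.26 and 56.81 TPM with M4).

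The last 50 bases of the leading transcript were read for the poly(A) signal AATAAA, because oligo-dT priming favours RNAs with a poly(A) tail. The signal was present in 72 of 190 members (37.9%), in 28 of the 58 detected (48.3%) and in 44 of the 132 not detected (33.3%). The same share was 55.9% for protein-coding genes, 31.9% for antisense genes and 30.9% for lincRNAs. Detected genes held it more often than undetected ones in these classes too, at 61.3% and 48.0% for protein-coding genes, 39.1% and 30.8% for antisense genes and 41.0% and 30.2% for lincRNAs. With the variant ATTAAA counted too, it was 47.9% for the members. In the 72 members the first base of the signal lay a median of 21.5 bases from the end, with quartiles of 19 and 24.25. Of the 15 highest members 9 held AATAAA and the other 6 held neither form. The ends of 6 of the highest are shown on the lncRNA strand in GRCm38, from the GENCODE M21 transcripts, with AATAAA in capitals, to set 4 that hold it beside 2 that do not.
Ndufb1-ps, chr12:101968110-101968159, minus strand: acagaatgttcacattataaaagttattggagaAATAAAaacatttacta
2810013P06Rik, chr8:123044553-123044602, plus strand: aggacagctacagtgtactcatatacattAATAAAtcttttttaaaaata
Gm49785, chr16:17531469-17531518, plus strand: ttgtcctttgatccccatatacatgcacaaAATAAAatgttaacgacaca
AV356131, chr7:116444275-116444324, plus strand: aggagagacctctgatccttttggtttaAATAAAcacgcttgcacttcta
4632427E13Rik, chr7:92737658-92737707, minus strand: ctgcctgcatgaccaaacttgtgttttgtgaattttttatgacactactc
2610306M01Rik, chr6:86848399-86848448, minus strand: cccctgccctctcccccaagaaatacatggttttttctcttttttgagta

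In the first 4 ends the first base of the signal lies 17 to 22 bases from the end. The annotated ends of 4632427E13Rik and 2610306M01Rik lack it although both lncRNAs were among the 6 highest. No match says only that these letters are not in the annotated window.

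Genes of the machinery that acts on such transcripts were expressed in both pools. Of the nuclear exosome and its adaptors 17 of 19 listed symbols were matched, all but Skiv2l2 and Papd5. Of these 17 genes 16 were detected, with a median of 62.9 TPM. The highest were Pabpn1, the nuclear poly(A)-binding protein, at 155.53 and 165.59 TPM and the exosome subunit Exosc8 at 95.25 and 97.52 TPM, and Exosc6, listed at 0 TPM in pool 1 and at 1.21 TPM in pool 2, was the one not detected. Of the cap-binding, early termination and Integrator genes 20 of 20 were detected (median 46.9 TPM), from Srrt, the cap-complex protein ARS2, at 154.27 and 144.13 TPM and Ncbp2 at 104.27 and 104.81 TPM down to Ints12 at 20.53 and 19.00 TPM. Of the poly(A) site cleavage genes 19 of 19 were detected (median 84.9 TPM), from the poly(A) polymerase Papola at 260.41 and 254.95 TPM and Cpsf6 at 244.49 and 235.52 TPM down to Pcf11 at 24.40 and 26.99 TPM. Of the U1 snRNP proteins and their partners 16 of 16 were detected (median 201 TPM), from Snrpe at 603.13 and 610.90 TPM and Snrpg at 500.26 and 563.51 TPM down to Tial1 at 30.81 and 31.22 TPM. The medians of all 4 lists were far above the 4.07 TPM of all protein-coding genes and the 0.41 TPM of the 190 lncRNAs. The 4.07 TPM takes in undetected genes, since 58.9% of protein-coding genes were detected. No median of detected genes alone was set beside the lists, so their height is not shown to be particular to them.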

How the data were processed

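Oligo-dT primed total RNA was measured in 2 forebrain libraries of 1 group. The authors deposited gene and transcript tables for mm10 with GENCODE M21 (main) and M4 (alternative). The expected counts the authors deposited are not normalised, and a read that matches several genes is divided among them. The deposited TPM values are scaled to a fixed total per library. The deposited posterior mean TPM was used as a score, in 1 alternative. Per the file headers the columns follow the layout of RSEM. Aligner, quantifier, versions and strand use are not stated in the sources used here. The members and lists were chosen with earlier results of these data known. Biotypes, starts and shared exon bases came from GENCODE M21 on GRCm38, and start windows (250 bases before to 50 after) from RefSeq. A gene count is the sum over named genes, without spike-ins (3.58% of counts in pool 1 and 3.28% in pool 2) and without numbered entries that name no gene (5.74e-05% and 9e-05%). Expected counts were scaled by TMM without rounding (edgeR 4.0.16, mean count of 10 or more, prior count 1), without a model test. DESeq2 1.42.0 size factors, from rounded counts, were the alternative. Ratios between pools carry exact binomial intervals at 95%, from rounded counts, and floors are the TPM that 3 counts give. They cover counting error only: the reads carry no molecular identifiers, so PCR copies may be counted repeatedly. The spread over the pools may be partly technical. Scripts ran in Python 3.11.15 (pandas 2.3.3, scipy 1.17.1, numpy 2.4.6) and R 4.3.3.

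By rule the text names the 15 highest members, 8 detected members with the largest excess over their neighbour, 6 undetected members beside the highest neighbours within 1 kb, 4 at each end of the pool ratio and of the M21 to M4 ratio (mean TPM of at least 1), their neighbours, and the 2 highest and 1 lowest genes of each RNA processing list. Other genes were named after their values were seen. The count for neighbours with chromatin roles is not reported here. Neighbour search, motif search and pool ratios were tested on simulated data. Alternatives covered the detection limit, annotation, neighbour definition, pseudocount, shared exons, scaling and each pool alone.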

Additional observations from a re-analysis of the deposited data

How the results depend on the processing

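No paired analysis was possible because the labels give only 1 group. The members detected numbered 83 at a TPM of at least 0.5, 19 at a TPM of at least 5 and 33 of 90 with GENCODE M4, and the detected pairs 82 of 173, 19 of 146 and 32 of 79, against 58. With 1 pool alone both counts were 63. The median log2 difference was -3.01 with M4, -3.32 with posterior mean TPM, -3.47 with neighbours within 1 kb, -4.61 with a pseudocount of 0.1, -2.93 where both genes were detected, -3.71 without shared exon bases and -3.48 for lncRNAs with whole counts, against -3.38, and from -3.41 to -3.36 with 1 pool alone. The lncRNAs above their neighbour numbered 3 of 89 with M4, 4 within 1 kb and 2 without shared exon bases, against 7, and from 7 to 10 with 1 pool alone (10 in pool 1). The rank correlation was 0.38 with M4 and with posterior mean TPM, 0.41 without transcripts under 300 bases, 0.39 within 1 kb and for whole counts, 0.022 where both were detected, 0.34 without shared exon bases, and 0.40 in each pool. Members over 2-fold between pools numbered 0 on the TPM + 1 scale, 4 of 88 at a mean TPM of 0.5, 30 of 190 with no filter and 0 of 34 with M4. The difference of 2610306M01Rik from Aak1 turned to 0.12 with M4, where Aak1 was at 13.9 TPM. The cause was not tested for any of these, beyond the fewer genes that M4 and the narrower sets hold. The spike-in scaling, the set without Ndufb1-ps and the set with whole counts were chosen after seeing the data. The CpG ratio in windows of 1000 bases was not run, since no genome sequence was used here. Depth limits lncRNAs near 1 TPM, where detection rested on as few as 11.7 counts.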
